A study of Mus musculus with 6 samples.

Results

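Genes of the endothelium, the cell layer that lines blood and lymphatic vessels, and the growth factors that act on it were compared between uteri of 2 genotypes. The list held 44 genes, chosen by name with earlier results of these data known. Among the 16813 genes of the array, 36 of them could be measured. Of these, 35 were found by the listed symbol and Figf was found under its current symbol Vegfd. Ly6c1 and Ramp2 had only probe sets that the platform annotation assigns to several genes and were not used, and Cldn5, Plvap, Cd34, Tek, Tie1 and Pgf were not analysed here. The measured genes were 24 of blood vessel endothelium, 4 of lymphatic vessels, 7 growth factors and Rgs5, a gene of pericytes, the contractile cells around small vessels. A gene was represented by its brightest probe set, a set of short probes for the same transcript.

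The tissue was whole uterus of intact female mice aged 2 weeks. Labels gave 3 arrays the genotype Arid1a f/f and 3 the genotype Arid1a d/d. By convention f denotes an allele flanked by loxP sites and d the same allele after deletion, and Arid1a encodes a subunit of a chromatin remodelling complex. The labels name neither what drove the deletion, nor the cells that carried it, nor whether each array was a separate animal; p-values therefore reflect only the spread between these samples, part of which may be technical. In whole uterus, fewer cells of a type and less RNA per cell cannot be told apart. Arid1a itself stood at 7.54, 7.58 and 7.71 in f/f and at 6.98, 7.06 and 7.04 in d/d (log2 intensity; limma adjusted p = 0.0260 over all genes), and the deleted part of the gene is not named in the labels. Library d/d 1 stood apart from d/d 2 and d/d 3: over all probe sets it correlated with f/f 1 at 0.995 and with d/d 2 at 0.990. Results that rest on it are given with and without it.

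Blood vessels grow when vascular endothelial growth factors (VEGFs) bind receptors on endothelial cells, among them Kdr, while angiopoietins and mural cells such as pericytes settle the new vessel. Neighbouring endothelial cells are held together by junction proteins such as Cdh5 and Esam. Lymphatic vessels use a related system, in which Vegfc and Vegfd act through Flt4 and the transcription factor Prox1 sets the identity of the cell. In the uterus the vessel bed is remodelled with the growth of the tissue and later with each cycle and pregnancy.

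Most blood vessel genes had lower mean levels in d/d uteri, and 3 of them passed the test over all genes. The median log2 difference, d/d minus f/f, was -0.48 over the 24 blood vessel genes, 0.14 over the 4 lymphatic genes and -0.12 over the 7 growth factors, against -0.01 over all 16813 genes. Differences were below 0 for 22 of the 24 blood vessel genes and for 53.4% of all genes. The highest d/d array lay below the lowest f/f array for 12 of the 24, against 9.42% of all genes. In limma with Benjamini-Hochberg adjustment over all genes, 3 of the 24 fell: Plxdc1, Icam2 and Aplnr. The same test called 0.512% of all genes lower and 0.63% higher. No member rose (0 at an adjusted p under 0.05 and 0 at an unadjusted p under 0.05), and 16 of the 36 members were lower at an unadjusted p under 0.05, against 6.88% of all genes lower and 5.29% higher by that rule. The difference between blood vessel genes, lymphatic genes and growth factors was not tested. Members were chosen with earlier results of these data known, so the shares over all genes are no independent test of them. Of the 24 blood vessel genes, 22 had a group mean above 2.69, the median log2 intensity of all probe sets, in at least 1 genotype. Sox7 and Esm1 lay below it in both genotypes, where background limits what a probe set can show, and are called dim. Of all 16813 genes, 5672 were dim by this rule, so most genes pass it and it does not single out endothelial genes.

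**Figure D1:**
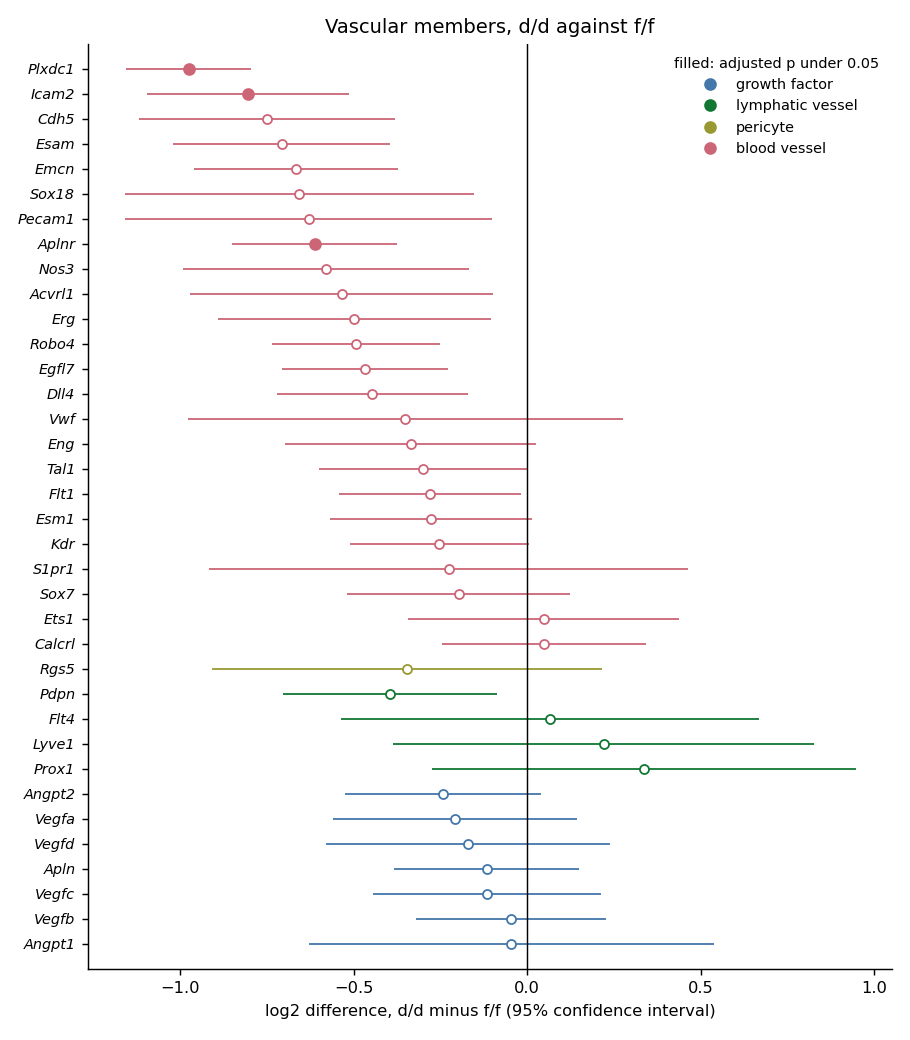
Log2 difference of each measured gene, d/d minus f/f, with its 95% confidence interval from limma, coloured by class; filled points passed an adjusted p of 0.05 over all genes. Plxdc1, Icam2 and Aplnr are filled, blood vessel genes lie mostly to the left of 0, and Flt4, Lyve1 and Prox1 lie to the right of it.

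Among genes of the endothelial surface and its junctions, Plxdc1 fell with little spread between arrays. Plxdc1 encodes a transmembrane protein also known as a marker of tumour endothelium. Arrays f/f 1, 2 and 3 read 5.62, 5.66 and 5.70 on the log2 scale, and arrays d/d 1, 2 and 3 read 4.68, 4.71 and 4.66; values below follow the same order. The groups did not overlap and the arrays of each genotype lay close together. The fall was 1.97-fold (with a log2 difference -0.98 ± 0.08 SE; limma adjusted p = 0.00419), which ranked 6 by p among all genes. It passed without each single array, with adjusted p up to 0.0369. A dimmer probe set of Plxdc1 had group means of 2.56 and 2.34, below 2.69, and a log2 difference of -0.21 that did not pass.

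Icam2, an adhesion molecule of endothelial junctions to which leukocytes bind, was the second gene of this class to fall. It stood at 6.07, 6.36 and 6.52 in the f/f arrays and at 5.56, 5.44 and 5.53 in the d/d arrays. The d/d arrays lay within a narrow band below the lowest f/f array. The fall was 1.75-fold (with a log2 difference -0.81 ± 0.13 SE; limma adjusted p = 0.0336). The call was lost when array 2 or array 3 of either genotype was left out, with adjusted p up to 0.152 and log2 differences of -0.93 to -0.70 over the 6 fits with 1 array left out.

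**Figure D2:**
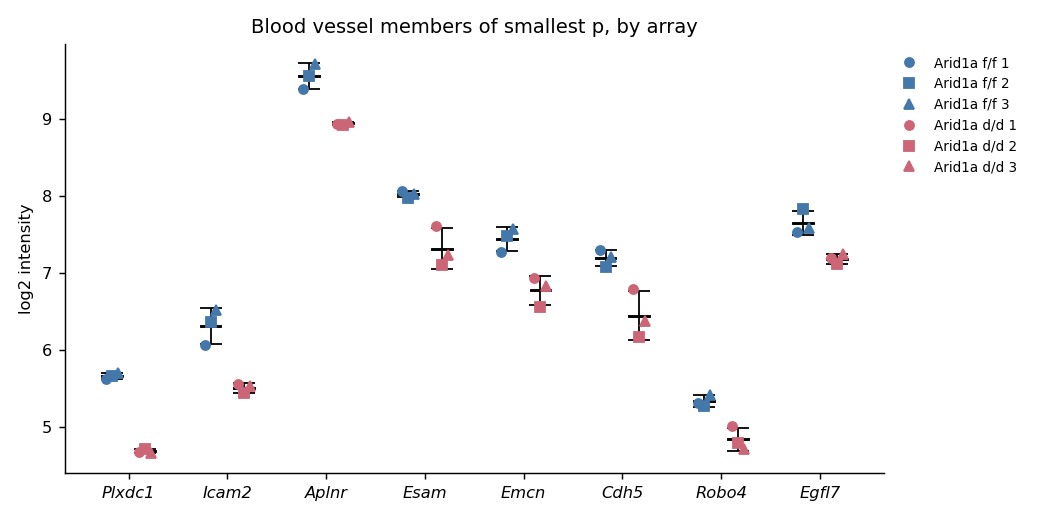
Log2 intensity of the 8 blood vessel genes with an adjusted p under 0.10, by array; symbols give the array number, bars the mean and SD of 3 arrays. For every gene shown the d/d arrays lie below the f/f arrays; d/d 1 is the highest d/d array for Icam2, Esam, Emcn, Cdh5 and Robo4.

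Other junction and surface genes were lower without passing. Esam, an adhesion protein of tight junctions, stood at 8.07, 7.98 and 8.03 in f/f against 7.61, 7.11 and 7.24 in d/d (log2 difference -0.71 ± 0.13 SE; limma adjusted p = 0.0603). Emcn, the endomucin of capillary and venous endothelium, stood at 7.27, 7.49 and 7.57 in f/f against 6.93, 6.56 and 6.83 in d/d (log2 difference -0.67 ± 0.13 SE; limma adjusted p = 0.0603). Cdh5, the cadherin of endothelial junctions, stood at 7.30, 7.08 and 7.21 in f/f against 6.79, 6.17 and 6.38 in d/d (log2 difference -0.75 ± 0.16 SE; limma adjusted p = 0.0865). In each of these genes the groups did not overlap and d/d 1 lay closest to the f/f arrays. A dimmer probe set of Cdh5, below 2.69 in both genotypes, had a log2 difference of -0.10.

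Robo4, a roundabout receptor of endothelium, had a log2 difference of -0.49 ± 0.10 (SE) and Egfl7, a matrix protein secreted by endothelium, one of -0.47 ± 0.10 (SE), with limma adjusted p of 0.0865 and 0.0957. The 4 probe sets of Egfl7 gave log2 differences between -0.53 and -0.46. Pecam1, a general adhesion molecule of endothelium, overlapped between the groups, with d/d 1, at 5.78, above f/f 2, at 5.71, while d/d 2 and d/d 3 stood at 4.93 and 5.09. Eng, a co-receptor for transforming growth factor beta, had a log2 difference of -0.34 (95% confidence interval -0.70 to 0.03). Vwf, the clotting factor stored in endothelium, had -0.35 (95% confidence interval -0.98 to 0.27). In all, 10 of 14 listed genes of this class were measured, 2 fell and 8 did not pass, and the median log2 difference was -0.65.

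Promoters of blood vessel genes with non-overlapping groups are shown because factors of the ETS family, such as Erg, are known to act at endothelial promoters. RefSeq windows of build GRCm38.p6 matched 20 of the 36 members, and the 250 bases before the start were read. Plxdc1, Icam2 and Aplnr, the genes that fell, were not among them, and none of the genes shown passed the test over all genes. Of the 12 blood vessel genes whose groups did not overlap, 5 had a window: Emcn at chr3:137340828-137341077 (plus strand), Robo4 at chr9:37401722-37401971 (plus strand), Egfl7 at chr2:26580833-26581082 (plus strand, the upstream one of its 3 starts), Flt1 at chr5:147726012-147726261 (minus strand) and Dll4 at chr2:119325534-119325783 (plus strand). Capitals mark CGGAAG or AGGAAG, searched on both strands, so that a match on the other strand reads CTTCCG or CTTCCT.
Emcn: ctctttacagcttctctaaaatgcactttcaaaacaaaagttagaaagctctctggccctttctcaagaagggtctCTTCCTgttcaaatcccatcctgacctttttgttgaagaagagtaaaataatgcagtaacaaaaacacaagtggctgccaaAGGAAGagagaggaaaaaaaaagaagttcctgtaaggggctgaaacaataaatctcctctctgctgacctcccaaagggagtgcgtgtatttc
Robo4: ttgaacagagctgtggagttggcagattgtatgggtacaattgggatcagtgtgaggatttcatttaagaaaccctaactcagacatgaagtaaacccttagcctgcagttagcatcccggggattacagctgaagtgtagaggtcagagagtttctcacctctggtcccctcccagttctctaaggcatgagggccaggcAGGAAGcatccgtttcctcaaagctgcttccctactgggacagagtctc
Egfl7: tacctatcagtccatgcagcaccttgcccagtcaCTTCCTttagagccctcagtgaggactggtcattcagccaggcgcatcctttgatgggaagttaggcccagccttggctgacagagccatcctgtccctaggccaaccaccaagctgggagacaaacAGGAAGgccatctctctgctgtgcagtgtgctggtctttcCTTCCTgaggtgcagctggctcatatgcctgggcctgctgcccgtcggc
Flt1: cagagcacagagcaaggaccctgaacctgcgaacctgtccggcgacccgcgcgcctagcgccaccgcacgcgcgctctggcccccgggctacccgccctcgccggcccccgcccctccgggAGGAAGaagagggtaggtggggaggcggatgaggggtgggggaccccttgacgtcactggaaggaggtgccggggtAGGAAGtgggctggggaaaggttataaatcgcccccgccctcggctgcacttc
Dll4: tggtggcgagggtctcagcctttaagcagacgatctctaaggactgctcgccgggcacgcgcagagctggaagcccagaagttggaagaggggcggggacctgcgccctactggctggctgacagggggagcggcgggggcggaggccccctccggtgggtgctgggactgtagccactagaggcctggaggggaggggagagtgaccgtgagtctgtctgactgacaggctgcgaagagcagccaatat
Emcn held 2 matches, starting 174 and 93 bases before the start, Robo4 held 1 at 49 bases, Egfl7 held 3 at 216, 89 and 49 bases, Flt1 held 2 at 129 and 53 bases, and Dll4 held 0. The windows at the later starts of Egfl7, not shown, held 1 and 0. Of the 16 windows of 11 blood vessel members 8 held a match, of the 4 windows of 3 lymphatic members 0, and of the 6 windows of 5 growth factors 1, while 39.2% of all 32851 windows did. Motifs of the SOX family (ACAATG or ACAAAG, both strands) were in 4 of the 16 blood vessel windows, 2 of the 4 lymphatic windows and 1 of the 6 growth factor windows, against 25.2% of all windows. The GATA motif AGATAA (both strands) was in 2, 0 and 2 of these windows, against 9.99% of all windows. The windows of these members are few, and a match is only a run of letters.

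Aplnr, the receptor of apelin on endothelial cells, was the one of 6 measured receptors that fell. Its log2 intensity was 9.39, 9.56 and 9.72 in f/f against 8.94, 8.93 and 8.96 in d/d. The d/d arrays differed from each other by far less than the f/f arrays did, and the groups did not overlap. The fall was 1.53-fold (with a log2 difference -0.61 ± 0.10 SE; limma adjusted p = 0.0437 over genes). Its dimmer probe set gave a log2 difference of -0.58. Over all probe sets the adjusted p was 0.0518 and 0.0910 for the 2 probe sets, and over genes the call held without d/d 1 and was lost without each other array, with adjusted p up to 0.181.

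The VEGF receptors of blood vessels were slightly lower and did not pass. Kdr, the main signalling receptor for Vegfa, stood at 6.88, 6.72 and 6.92 in f/f against 6.60, 6.42 and 6.74 in d/d (log2 difference -0.25; 95% confidence interval -0.51 to 0.00). Flt1, which binds Vegfa and limits its action, stood at 5.48, 5.47 and 5.40 in f/f against 5.38, 5.002 and 5.12 in d/d (log2 difference -0.28; 95% confidence interval -0.54 to -0.02; limma adjusted p = 0.377). All 4 probe sets of Flt1 had log2 differences below 0, from -0.35 to -0.16. The Kdr groups overlapped through d/d 3, which lay just above f/f 2, and the Flt1 groups did not overlap, though f/f 3 and d/d 1 were nearly equal.

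Receptors of other ligands differed among themselves. Acvrl1, a receptor of bone morphogenetic proteins on endothelium, had a log2 difference of -0.53 (95% confidence interval -0.97 to -0.10; limma adjusted p = 0.296), beside -0.28 by a dimmer probe set. S1pr1, the receptor of sphingosine 1-phosphate, had -0.23 (95% confidence interval -0.92 to 0.46), with d/d 1 at 5.65 above every f/f array and d/d 2 and d/d 3 at 4.47 and 4.71. Calcrl, the receptor of adrenomedullin, stood at 7.20, 7.07 and 7.13 in f/f against 7.37, 7.25 and 6.92 in d/d, a log2 difference of 0.05 (95% confidence interval -0.24 to 0.34). The receptors had a median log2 difference of -0.27.

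Of 5 transcription factors of endothelium, 0 passed the limma test over all genes, and 2 were lower at an unadjusted p under 0.05, against 6.88% of all genes. Sox18, which acts in early blood and lymphatic vessels, stood at 7.12, 7.15 and 7.34 in f/f against 7.01, 6.07 and 6.56 in d/d (log2 difference -0.66 ± 0.22 SE; limma adjusted p = 0.263). Erg, which maintains endothelial identity, stood at 5.82, 5.46 and 5.71 in f/f against 5.52, 5.01 and 4.95 in d/d (log2 difference -0.50 ± 0.17 SE; limma adjusted p = 0.276). In both, d/d 1 lay near the f/f arrays and the other two d/d arrays lay below them. Tal1, a factor of blood and endothelial development, had a log2 difference of -0.30. Ets1, which is found in endothelium and in many other cells, had 0.05 by its brightest probe set, and all 4 of its probe sets lay above 0, from 0.04 to 0.35.

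Genes of sprouting and arterial endothelium were lower without passing. Dll4, the Notch ligand of tip cells and arteries, stood at 4.52, 4.35 and 4.15 in f/f against 3.81, 4.02 and 3.84 in d/d (log2 difference -0.45 ± 0.12 SE; limma adjusted p = 0.156), with non-overlapping groups, while its dimmer probe set gave 0.15. Nos3, the nitric oxide synthase of endothelium, stood at 4.93, 4.72 and 4.91 in f/f against 4.58, 3.87 and 4.37 in d/d (log2 difference -0.58 ± 0.18 SE; limma adjusted p = 0.224). Esm1, a proteoglycan of tip cells, was dim in both genotypes, with a log2 difference of -0.28.

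Rgs5, a regulator of G protein signalling in pericytes, gave different answers by probe set. The brightest probe set stood at 7.83, 7.40 and 7.08 in f/f against 7.54, 6.78 and 6.94 in d/d and did not pass (log2 difference -0.35; 95% confidence interval -0.91 to 0.21). A second, with the suffix _x_at, which marks probes that can bind other transcripts, stood at 7.13, 7.10 and 7.11 in f/f against 6.61, 6.36 and 6.57 in d/d and fell (log2 difference -0.60 ± 0.10 SE; limma adjusted p = 0.0444 over all probe sets). The third gave -0.76 ± 0.17 (SE; limma adjusted p = 0.130). Of the 65 probe sets of the 36 members, 3 passed over all probe sets: 1 each of Plxdc1, Icam2 and Rgs5. By the same rule 217 of all 41420 probe sets passed, 87 of them lower in d/d. Of the 29 probe sets other than the brightest, 9 were dim in both genotypes, and 18 of the other 20 had the sign of the brightest.

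Lymphatic genes showed no common direction, and 0 of 4 passed the limma test over all genes (0 at an unadjusted p under 0.05 upward, 1 downward). By the unadjusted rule 5.29% of all genes were higher and 6.88% lower. Lyve1, a hyaluronan receptor of lymphatic endothelium and some macrophages, stood at 6.28, 6.01 and 6.11 in f/f against 7.02, 5.92 and 6.13 in d/d (log2 difference 0.22; 95% confidence interval -0.39 to 0.83). Prox1, the factor that sets lymphatic identity, stood at 3.72, 3.27 and 2.97 in f/f against 4.18, 3.49 and 3.29 in d/d (log2 difference 0.34; 95% confidence interval -0.27 to 0.95). Flt4, the receptor of Vegfc and Vegfd, stood at 5.11, 4.66 and 5.13 in f/f against 5.64, 4.75 and 4.69 in d/d (log2 difference 0.06; 95% confidence interval -0.54 to 0.67). In all of these d/d 1 was the highest of the 6 arrays, and d/d 2 and d/d 3 lay within the f/f range, apart from Lyve1 in d/d 2, which lay below it. Without d/d 1 the log2 differences were -0.11 for Lyve1, 0.07 for Prox1 and -0.24 for Flt4, and the median of the 4 genes was -0.18 in place of 0.14. Dimmer probe sets, over all arrays, gave 0.03 for Lyve1 and -0.01 for Flt4. Those of Prox1, below 2.69 in both genotypes, gave 0.08 and -0.04. With each gene averaged over its probe sets, the lymphatic median was 0.08.

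**Figure D3:**
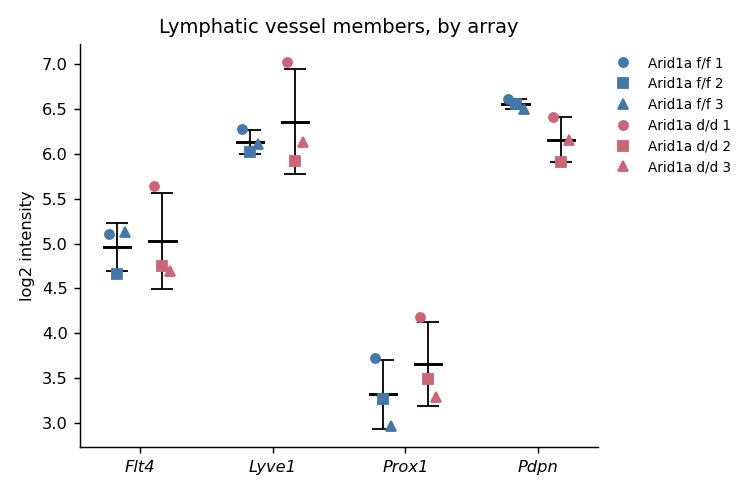
Log2 intensity of the 4 lymphatic vessel genes by array; symbols give the array number, bars the mean and SD of 3 arrays. Array d/d 1 lies highest for Flt4, Lyve1 and Prox1, and all d/d arrays of Pdpn lie below its f/f arrays.

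Pdpn, the podoplanin of lymphatic endothelium, which mesothelium and stromal cells also make, differed from these. It stood at 6.61, 6.55 and 6.50 in f/f against 6.41, 5.90 and 6.16 in d/d, with groups that did not overlap (log2 difference -0.40 ± 0.13 SE; limma adjusted p = 0.270). Markers of mesothelium, the outer cell layer of the uterus, had a median log2 difference of 0.10, with 1 of 6 below 0, and a summed log2 level of 26.4 to 27.6 in f/f against 26.6 to 28.5 in d/d. Markers of macrophages and leukocytes had a median of -0.04, with 4 of 8 below 0, and summed levels of 42.2 to 42.7 in f/f against 41.7 to 43.1 in d/d. The part of either cell type in the Pdpn and Lyve1 values was not tested.

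The growth factors were all slightly below f/f by their means, and 0 of 7 passed the limma test over all genes or at an unadjusted p under 0.05. The groups overlapped for each of them by the brightest probe set. Vegfa, the main signal for blood vessel growth, stood at 6.50, 7.02 and 6.81 in f/f against 6.52, 6.76 and 6.43 in d/d (log2 difference -0.21; 95% confidence interval -0.56 to 0.14). Its dimmer probe set gave -0.22, with d/d arrays at 4.28, 4.24 and 4.24 just below the lowest f/f array, f/f 1, which also reads 4.28. Angpt2, an angiopoietin that loosens vessels, stood at 5.09, 4.91 and 4.94 in f/f against 4.97, 4.67 and 4.57 in d/d (log2 difference -0.24; 95% confidence interval -0.52 to 0.04). Angpt1, which stabilises them, had -0.05 (95% confidence interval -0.63 to 0.54), the widest interval among the growth factors.

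Ligands of the lymphatic receptor and of Aplnr were lower by their means, with intervals that reached above and below no difference. Vegfc had a log2 difference of -0.12 (95% confidence interval -0.44 to 0.21), with its 3 probe sets between -0.12 and -0.05. Vegfd had -0.17 (95% confidence interval -0.58 to 0.24), with d/d 2 at 3.44 below the other arrays, which lay between 3.93 and 4.16. Its other probe sets gave -0.31 and -0.20, and in these f/f 2 was also low, at 3.42 and 3.24. Apln, the apelin ligand, stood at 5.14, 5.16 and 5.27 in f/f against 4.85, 5.15 and 5.21 in d/d, a log2 difference of -0.12 (95% confidence interval -0.38 to 0.15), beside -0.61 for its receptor. Vegfb had -0.05 (95% confidence interval -0.32 to 0.23).

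Further endothelial genes, listed apart from the members, were mostly lower as well. Of 39 measured of 49 listed, 33 had log2 differences below 0, the median was -0.35, and all d/d arrays were below the f/f arrays for 13, while 0 fell and 1 rose over all genes by limma (17 were lower and 1 higher at an unadjusted p under 0.05). Of all genes, 53.4% had differences below 0 and 9.42% had d/d below f/f without overlap. By limma 0.512% of them fell and 0.63% rose, and 6.88% were lower and 5.29% higher by the unadjusted rule. Thbd, the thrombomodulin of vessel lining, stood at 6.95, 6.88 and 6.79 in f/f against 6.34, 5.70 and 5.83 in d/d (log2 difference -0.92 ± 0.16 SE; limma adjusted p = 0.0511). Ushbp1, a gene found in endothelium, had -0.65 ± 0.12 (SE; limma adjusted p = 0.0569). The gene that rose was Efnb2, the ephrin of arterial endothelium, which other cell types make as well, at 8.33, 8.09 and 8.16 in f/f against 8.75, 9.11 and 8.84 in d/d (log2 difference 0.70 ± 0.12 SE; limma adjusted p = 0.0452). Mmrn1, a lymphatic gene of this list, was highest in d/d 1, at 6.61, as Lyve1, Prox1 and Flt4 were.

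Genes of pericytes and mural cells had lower mean levels in d/d, with log2 differences from -0.69, for Heyl, to -0.03. Of 13 measured of 15 listed, all 13 had log2 differences below 0, the median was -0.29, 8 had groups that did not overlap, and 0 passed over all genes by limma (7 were lower at an unadjusted p under 0.05). Of all genes, 53.4% were below 0, 9.42% had d/d below f/f without overlap, and 6.88% were lower by the unadjusted rule. Cspg4, a proteoglycan of pericytes, stood at 5.41, 5.11 and 5.44 in f/f against 4.61, 4.68 and 4.93 in d/d (log2 difference -0.58 ± 0.13 SE; limma adjusted p = 0.0936). Pdgfrb, the receptor by which endothelium recruits pericytes, had -0.29, and Pdgfb, its ligand, -0.44.

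**Figure D4:**
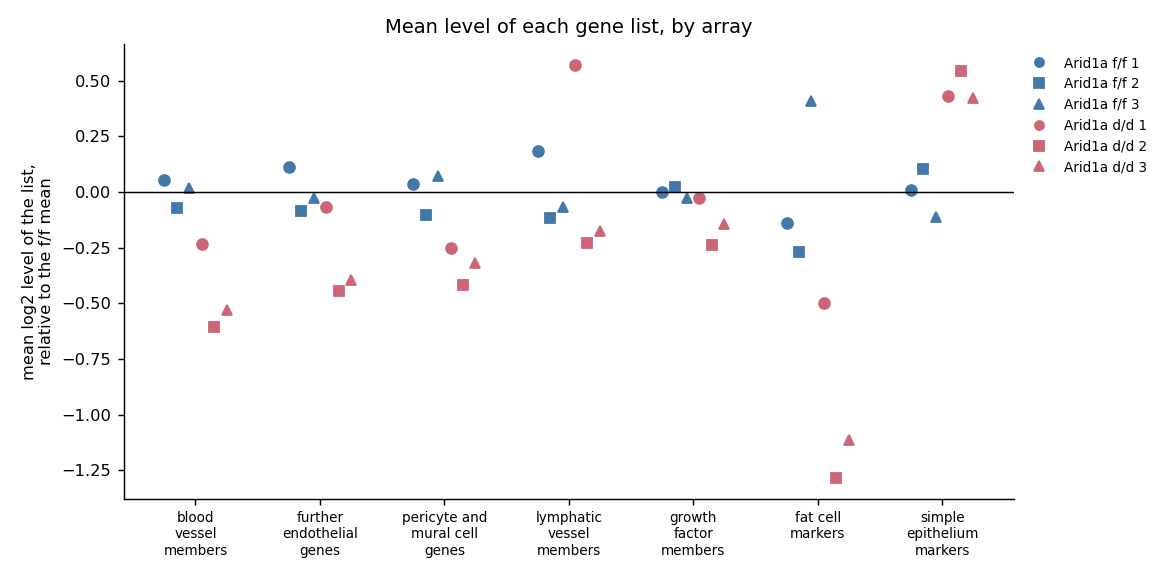
Mean log2 level of each gene list in each array, relative to the mean of the 3 f/f arrays; symbols give the array number. The blood vessel and pericyte lists lie lower in all d/d arrays, the lymphatic list is highest in d/d 1, and fat cell markers lie lower and simple epithelium markers higher in d/d.

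Mean levels of the blood vessel genes and of fat cell markers were both lower in every d/d array than in every f/f array. The mean log2 level of the 24 genes was 5.89, 5.77 and 5.86 in f/f against 5.60, 5.23 and 5.31 in d/d. Fat cell markers averaged 5.36, 5.23 and 5.91 in f/f against 5.0, 4.22 and 4.39 in d/d. All 7 of them lay lower in every d/d array than in every f/f array, against 9.42% of all genes. Their median log2 difference was -1.16, beside -0.48 for the blood vessel genes. Their summed level was 36.6 to 41.4 in f/f against 29.5 to 35.0 in d/d, and Lep was dim in both genotypes. Adipoq, the adiponectin gene, had a log2 difference of -1.59 ± 0.37 (SE; limma adjusted p = 0.112). Fat tissue holds many capillaries, and the part of fat in the vessel values was not tested.

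Marker lists of other cell types differed in direction. Simple epithelium markers were higher in 5 of 6, with a median log2 difference of 0.61. Their summed levels were 49.7 to 51.0 in f/f against 52.9 to 53.6 in d/d. Among them Cdh1, the epithelial cadherin, rose (log2 difference 1.00 ± 0.15 SE; limma adjusted p = 0.0314). Stroma markers were lower in 9 of 10, with a median log2 difference of -0.31. Their summed levels were 99.1 to 101.0 in f/f against 95.9 to 98.0 in d/d. All d/d arrays lay below the f/f arrays for 4 of the 10 and above them for 1, against 9.42% and 7.1% of all genes. Of the stroma markers, Thy1, a surface protein of fibroblasts and other cells, fell by more than any blood vessel member (log2 difference -1.06 ± 0.13 SE; limma adjusted p = 0.0155), while Vcan, a matrix proteoglycan, had 0.69. Smooth muscle markers were lower in 7 of 7, with a median log2 difference of -0.21. Their summed levels were 61.3 to 62.8 in f/f against 58.9 to 62.3 in d/d. Differences below 0 were found for 53.4% of all genes. Genes of red cells and platelets had a median of -0.09, with summed levels of 18.0 to 19.1 in f/f against 17.1 to 18.5 in d/d, and Hba-a1, Slc4a1 and Gp9 were dim in both genotypes. The part of these cell types in the vessel values was not tested.

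The number of members that passed depended on d/d 1. It was the highest of the 3 d/d arrays for 17 of the 24 blood vessel genes and 4 of the 4 lymphatic genes, against 37.1% of all genes. Without it, with 2 d/d arrays left, 14 members fell in place of 3, where the same fit called 2.93% of all genes lower. These were Plxdc1, Icam2, Aplnr, Esam, Emcn, Cdh5, Robo4, Pecam1, Vwf, Acvrl1, Sox18, Erg, Nos3 and, of the lymphatic genes, Pdpn. The median of the blood vessel genes was then -0.60, and 19 of the 24 had groups that did not overlap, against 19.5% of all genes. Without f/f 1, Plxdc1 and Icam2 fell, in a fit that called 0.202% of all genes lower. Plxdc1 alone fell without f/f 2, f/f 3, d/d 2 and d/d 3, in fits that called 0.0595%, 0.0773%, 0.0833% and 0.0714% lower.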

How the data were processed

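Each deposited value is a linear intensity of 1 probe set on 1 array. RMA, which corrects background and gives arrays a shared distribution, is named for them in the submitters' processing notes, without settings. The design had allowed for log2 values; the values were linear, so log2 was taken, with no added constant. Of 41420 probe sets, 31562 had exactly 1 symbol, which gave 16813 genes by the brightest probe set. Array medians of the linear intensities, before log2 was taken, lay between 6.34 and 6.59. The fit used limma 3.58.1 under R 4.3.3 (eBayes, 2-sided, no covariate, adjusted over all genes or, where stated, all probe sets). It was checked on simulated data with independent noise. The check required recovery only of changes larger than those of the members that fell, so it does not bear on smaller ones. Having 3 arrays a group limits the precision. No set test was run. Members and lists were chosen with earlier results of these data known. All members are named, with up to 3 genes of smallest p from the other lists; Pdgfrb, Pdgfb, Mmrn1, Hba-a1, Slc4a1, Gp9 and Lep were named after their values were seen. Alternatives are given with their effect at the end.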

Additional observations from a re-analysis of the deposited data

How the results depend on the processing

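The count of 3 members that fell was 4 with quantile normalization repeated, which added Esam, and 3 with arrays centred on their median, without dim probe sets, without _x_at probe sets and with each gene averaged over its probe sets. It became 5 with an intensity trend and robust variance, 7 with array weights, 6 with the replicate number as a block (replicate block), 9 without both arrays numbered 1, 8 at an adjusted p under 0.10 and 16 at an unadjusted p under 0.05, and 1 to 14 with each array left out. Calls rose over all genes too. The main fit called 0.512% of them lower and repeated quantile normalization 0.559%. The trend and robust variance called 0.601% lower and array weights 1.11%. In the settings that kept the count at 3, the share lay between 0.47% and 0.679%. The share was 1.43% with the block, 1.9% without both arrays numbered 1 and 6.88% at an unadjusted p under 0.05. Shares with each array left out are given above, and the share at an adjusted p under 0.10 was not counted. The looser thresholds widen the count by construction; for the others the cause was not tested. No member rose in any of these settings, and Plxdc1 passed in all 15 fits. The labels do not say whether samples that share a number share anything else. Deviations from the group means correlated at 0.54, 0.02 and 0.31 for numbers 1, 2 and 3. The value for number 1 was the highest of all pairs of an f/f and a d/d array. However, f/f 3 and d/d 2 correlated at 0.40, so not every array matched its own number best. The block added Cdh5, Esam and Pecam1 and removed none. Blood vessel genes with d/d below f/f numbered 19 without both arrays numbered 1, against 25.9% of all genes. They numbered 12 to 19 with each array left out, against 12.1% to 19.5% of all genes. Both settings were chosen for this count after seeing the data, and fewer arrays overlap less. The lymphatic median turned below 0 with array weights (-0.0036) and without both arrays numbered 1 (-0.105). The growth factor median was -0.24 without both arrays numbered 1 and -0.21 to -0.12 with each array left out. The blood vessel median stayed between -0.60 and -0.40. Signs turned, with no call on either side, without both arrays numbered 1 for Calcrl (-0.011), Flt4 (-0.17), Lyve1 (-0.040) and Vegfb (0.043), with array weights for Flt4 (-0.078), and with the mean of all probe sets for Angpt1 (0.017). With each array left out the ranges crossed 0 for Calcrl (-0.045 to 0.18), S1pr1 (-0.58 to 0.0095), Ets1 (-0.093 to 0.18), Flt4 (-0.24 to 0.23), Lyve1 (-0.11 to 0.44), Vegfb (-0.15 to 0.030), Vegfc (-0.24 to 0.023), Vegfd (-0.33 to 0.031) and Angpt1 (-0.31 to 0.15). For these the cause was not tested.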

Other observations

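Genes that respond to low oxygen, a state that induces Vegfa, showed no common direction. Of 15 measured of 16 listed, 8 had log2 differences below 0, the median was -0.04, and 0 passed by limma over all genes (1 lower and 1 higher at an unadjusted p under 0.05). By the unadjusted rule 6.88% of all genes were lower and 5.29% higher. Pdk1, a kinase that limits pyruvate oxidation, stood at 6.03, 5.68 and 6.19 in f/f and 6.26, 6.57 and 6.27 in d/d (log2 difference 0.40 ± 0.15 SE; limma adjusted p = 0.329). Epas1, a hypoxia-inducible factor that is abundant in endothelium, stood at 9.21, 8.68 and 8.88 in f/f and 8.90, 7.97 and 8.17 in d/d (log2 difference -0.58; limma adjusted p = 0.403). Slc2a1, a glucose transporter, had 0.33.

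Genes whose products restrain vessel growth had lower mean levels in d/d, with log2 differences from -0.46 to -0.02. All 8 measured of 12 listed had log2 differences below 0, with a median of -0.23, and 0 passed by limma over all genes (2 were lower at an unadjusted p under 0.05). Of all genes, 53.4% were below 0 and 6.88% were lower by the unadjusted rule. Col18a1, the collagen from which endostatin is cut, stood at 8.34, 8.28 and 8.51 in f/f and 7.91, 7.82 and 8.02 in d/d (log2 difference -0.46 ± 0.10 SE; limma adjusted p = 0.0930). Serpinf1, a secreted inhibitor of vessel growth, had -0.40 with overlapping groups.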
